A study of Mus musculus with 14 samples.

Results

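The clustered protocadherins are a family of cell surface adhesion proteins encoded side by side on mouse chromosome 18, and their mRNA levels are described here in the superior colliculus, the midbrain target of retinal axons. Members were taken by name: 58 of the 55359 Ensembl gene IDs in the count tables carry a symbol of the alpha, beta or gamma cluster, with 14 in the alpha, 22 in the beta and 22 in the gamma cluster. The alpha count includes Pcdhac1 and Pcdhac2, and the gamma count holds 12 members of type A, 7 of type B and the C members Pcdhgc3, Pcdhgc4 and Pcdhgc5. RNA came from ICR/CD-1 pups at postnatal day 6 whose eyes were injected at postnatal day 0 to 1 with 50 mM carbenoxolone (cbx), which closes gap junctions, or with saline, where cbx is meant to abolish the spontaneous waves of activity in the retina. The superficial layer, in which retinal axons end, and the deep layer were collected apart, and each library pooled the tissue of 3 brains. There were 4 cbx superficial, 3 saline superficial, 4 cbx deep and 3 saline deep libraries. No genetic modification is named for any group, and no untreated pups are among them. p-values therefore measure the spread between pooled libraries, and in bulk tissue fewer cells of a type and less RNA per cell cannot be told apart.

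In the alpha and gamma clusters each member has its own large first exon, which encodes the extracellular cadherin repeats, the membrane span and a short tail, and this exon is spliced to a set of constant exons shared by the whole cluster. Beta genes have a single exon and no constant part. In most neurons the variable promoters are chosen largely at random, through CTCF and cohesin and with DNA methylation holding unused promoters silent, so that single cells carry different combinations of isoforms, while the C-type promoters are used more uniformly. The proteins bind like isoforms on the facing membrane; this recognition lets the branches of one neuron avoid each other, as in the starburst amacrine cells of the mouse retina, and the gamma cluster is also needed for the survival of many neurons. A bulk library adds up all cells, so it shows the summed RNA of each member in the tissue. It does not show how many cells use a member or which members share a cell.

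Total counts per library ran from 32004952 to 48776827, and the family took 0.0527% to 0.0866% of them. Levels are given in CPM, the count of a gene scaled to a common library size with edgeR's TMM factors. Of the 58 members 55 passed the filter on low counts, and tests were made on these as part of all 20330 genes that passed, with p-values adjusted over all of them and a threshold of 0.05. The 3 members that did not pass were Pcdha4 with 0 to 10 counts per library, Pcdhga10 with 0 to 13 counts, and the second of the pair of IDs that carry the symbol Pcdha11, ENSMUSG00000102206, with 0 to 8 counts. In the GENCODE M21 annotation Pcdhga10 has 0 bases of exon that no other gene covers, Pcdha4 has 404 and ENSMUSG00000102206 has 1268 such bases. Constant exons are assigned to every member of the alpha or gamma cluster, so reads from them cannot be credited to 1 member, and alpha and gamma values are less sure than those of the beta cluster. Among the beta genes Pcdhb12 overlaps an antisense gene, and Pcdhb21 and Pcdhb22 share bases with each other.

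Library 1 of the cbx superficial group stood apart from the other 3 libraries of its group in the alpha and gamma clusters and much less in the beta cluster. It was the lowest of the 4 for 11 of 12 tested alpha members and for 20 of 21 gamma members, with a median ratio to the mean of the other 3 of 0.45 in the alpha and 0.646 in the gamma cluster. In the beta cluster it was lowest for 10 of 22 members and highest for 5, with a median ratio of 0.98. Some beta genes were low too: Pcdhb21 was at 0.30 and Pcdhb2 at 0.435 of the mean of the other libraries, whereas Pcdhb12 was at 1.57. In this library 20% of tested members were at or below 0.5 of that mean, against 6.94% of all genes. The same library had the lowest total count of all, and its genes with transcripts over 6000 bases differed from those with transcripts under 2000 bases by -0.515 on the log2 scale, against differences of -0.245 to 0.294 in the other 13. Its summed neuron markers, 6375 CPM, were not below the 6070 to 6289 CPM of the other cbx superficial libraries. Single genes of that list went both ways. Map2 was lowest in library 1, at 1364 against 1680 to 1923 CPM, and so was Syt1, at 541.9 against 546.1 to 562.6 CPM. Snap25, Stmn2, Nefl, Elavl4, Tubb3 and Dlg4 were highest in it. Taf7, a housekeeping gene that lies between the beta and gamma clusters, was at 15.8 CPM against 11.7 to 12.99 CPM in the other cbx superficial libraries. Library 2 was intermediate in the alpha cluster, with a median of 0.703 of libraries 3 and 4. What set library 1 apart was not tested. Counts of members that passed, cluster medians and cluster sums are given with and without it. The shares of all genes set beside counts come from the main edgeR fit of all 14 libraries. Counts from other fits, also those without library 1, have no such share beside them and are not a result about the family alone. Means of CPM per kb, marker values and some values of single members are given only with library 1.

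**Figure D1:**
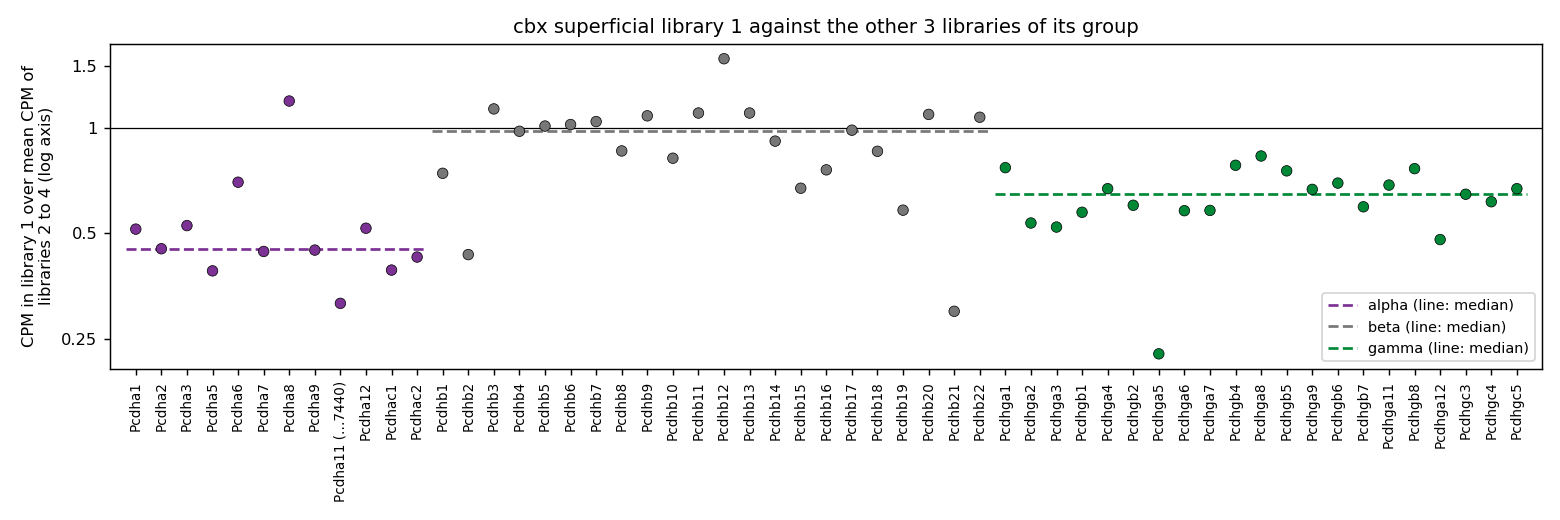
Ratio of the CPM in cbx superficial library 1 to the mean CPM of libraries 2 to 4, on a log axis, for the 55 tested members in their order along the locus; dashed lines are cluster medians. Alpha members centre on 0.45 and gamma members on 0.646, while beta members scatter around 0.98.

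To compare genes, CPM was divided by the kilobases (kb) of exon that no other gene covers. Bases covered by a gene on the opposite strand were left out as well, as in Pcdhgc3, Pcdha12, Pcdhgb7 and some other members. If reads were counted by strand, which is not known, the CPM per kb of these members could be too high. On that scale Pcdhgc4 and Pcdhgc3 stood above all others. Pcdhgc4, which is needed for the survival of neurons in the mouse, averaged 29.8, 39.1, 36.3 and 41.6 CPM per kb in cbx superficial, saline superficial, cbx deep and saline deep libraries. Pcdhgc3, which promotes dendrite growth in cortical neurons, averaged 34.7, 40.8, 27.6 and 34.4 CPM per kb in the same order of groups. Pcdhac2, the alpha isoform that lets serotonin axons spread out evenly, came next at 9.79, 13.5, 10.2 and 11.9 CPM per kb. The other C-type members were not high: over all 14 libraries Pcdhgc5 averaged 1.94 and Pcdhac1 0.637 CPM per kb.

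Outside the C type, the median level over all libraries was 2.83 CPM per kb for 10 alpha members, 2.21 for 22 beta members and 4.27 for 18 gamma members. Pcdha12 was the highest of these alpha members (5.93 CPM per kb), Pcdhb20 the highest beta member (6.15) and Pcdhgb7 the highest gamma member (8.30), closely followed by Pcdhgb6 (8.22). Pcdha12 and Pcdhgb7 overlap an antisense gene and Pcdhgb6 does not, so these ranks may depend on the strand setting. Each cluster held a member that was nearly silent although its first exon is unshared: Pcdha8 at 0.284, Pcdhb1 at 0.245 and Pcdhgb8 at 0.279 CPM per kb. Pcdhgb8 is annotated as a polymorphic pseudogene. Among tested members these 3 were lowest in their cluster in all 4 groups. Over all libraries the highest tested member was 39.3 times the lowest in the alpha cluster and 25.2 times in the beta cluster, and in the gamma cluster Pcdhgc4 stood at 36.2 against 0.279 CPM per kb for Pcdhgb8.

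**Figure D2:**
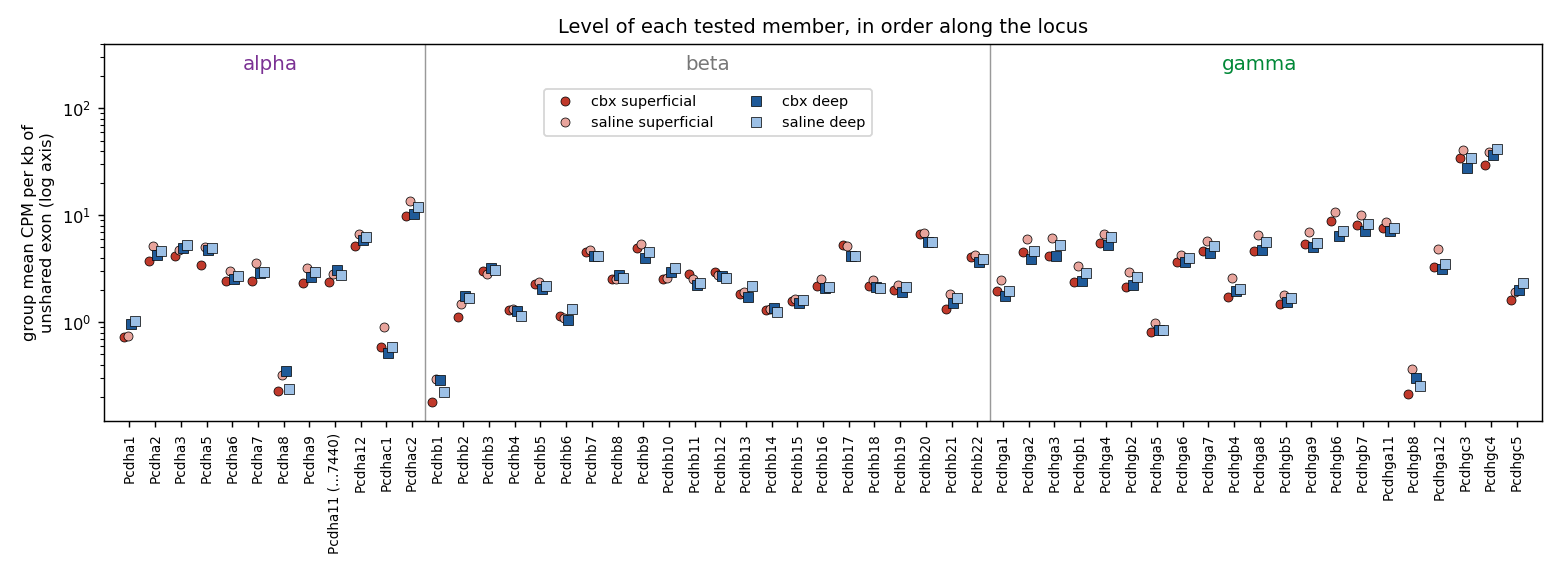
Group mean CPM per kb of unshared exon, on a log axis, for the 55 tested members in their order along the locus; circles are superficial and squares deep groups. Pcdhgc3 and Pcdhgc4 lie at 27.6 to 41.6 CPM per kb in all 4 groups, and Pcdha8, Pcdhb1 and Pcdhgb8 at 0.179 to 0.361 CPM per kb.

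Summed over its members, the gamma cluster was the largest, at 242, 353, 416 and 385 CPM in the 4 cbx superficial libraries and at 469.8, 435 and 433 CPM in the saline superficial libraries. Deep libraries had 348, 345, 364 and 341 CPM after cbx and 435, 405 and 371 CPM after saline. Every cbx library was thus below every saline library of its own layer. Without its C-type members the gamma cluster was at 121.6 to 202.5 CPM in cbx superficial and 216.9 to 242.8 CPM in saline superficial libraries. Deep libraries then overlapped, at 159 to 172 CPM after cbx and 171 to 196 CPM after saline. The alpha cluster gave 49.6, 85.0, 126 and 111 CPM in cbx superficial and 133, 117 and 120.3 CPM in saline superficial libraries, which overlapped. In deep libraries it was at 100.6, 103, 120.2 and 102 CPM after cbx and at 130.2, 111 and 104 CPM after saline.

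The beta cluster had a mean of 233 ± 9.07 CPM (SD, n = 4) in cbx superficial, 244 ± 11.5 CPM (n = 3) in saline superficial, 217 ± 8.0 CPM (n = 4) in cbx deep and 224 ± 5.45 CPM (n = 3) in saline deep libraries. As a share of the family the beta cluster took 43.3% in cbx superficial library 1, 30.8% to 34.1% in the other cbx superficial libraries and 29.8% to 30.3% in saline superficial ones, and 31.7% to 33.2% in cbx deep against 28.8% to 31.5% in saline deep libraries. The gamma cluster took 47.1% to 53.1% in cbx superficial and 54.6% to 55.3% in saline superficial libraries, and 51.2% to 52.6% in cbx deep and 53.6% to 54.8% in saline deep libraries. In both layers cbx libraries thus had the larger beta and the smaller gamma share, without overlap and also without library 1. Without library 1 the cbx superficial means were 107 ± 20.8 CPM for the alpha, 236 ± 7.77 CPM for the beta and 385 ± 31.8 CPM for the gamma cluster (SD, n = 3). Sums and shares are a description and were given no test.

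**Figure D3:**
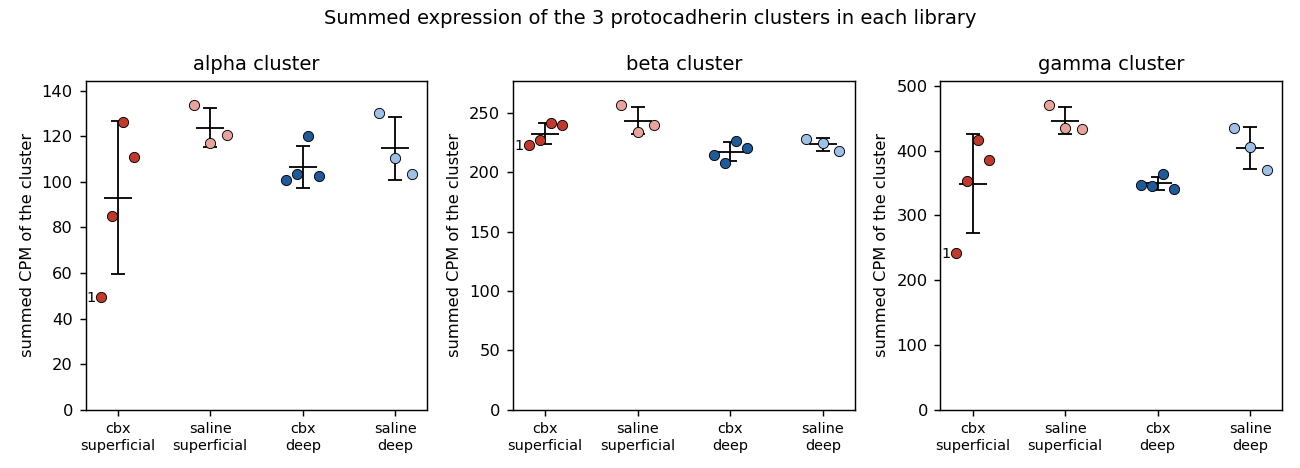
Summed CPM of each cluster in the 14 libraries; points are libraries, bars are the mean and SD, and the digit marks library 1 of the cbx superficial group. The gamma sums of cbx libraries lie below those of saline libraries in both layers, while the alpha sums spread from 49.6 to 126 CPM in the cbx superficial group.

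The first comparison asked whether cbx at the eye changed the family in the layer that receives retinal input. Of 55 tested members 2 were lower and 0 higher in cbx superficial than in saline superficial libraries, where 4.33% of all genes tested passed, 1.65% lower and 2.68% higher. Both belong to the gamma cluster and lie next to each other. Pcdhga8 (ENSMUSG00000103897), a type A member, had 8.42, 10.1, 10.7 and 9.64 CPM in cbx superficial libraries, against 15.9, 11.6 and 13.7 CPM in saline superficial libraries. All cbx values were below all saline values, and Pcdhga8 differed by -0.50 on the log2 scale (SE 0.125, edgeR adjusted p = 0.0308). Pcdhgb4 (ENSMUSG00000103585), a type B member, had 5.13, 7.40, 6.63 and 5.67 CPM after cbx, against 10.7, 8.02 and 9.16 CPM after saline. Here too the groups did not overlap, and the difference was -0.58 on the log2 scale (SE 0.149, edgeR adjusted p = 0.0341). Library 1 was the lowest cbx library for both.

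The remaining members did not pass, but their differences lay mostly on one side. The log2 difference was below 0 for 49 of the 55 members, against 48.5% of all genes. All 12 alpha members were below 0 with a median of -0.44, all 21 gamma members with a median of -0.32, and 16 of 22 beta members with a median of -0.06, while the median of all genes was 0.01. Libraries of the groups did not overlap for 6 members, all lower after cbx, against 8.29% of all genes lower and 8.96% higher. These were Pcdhb1, Pcdhga3, Pcdhgb2, Pcdhga9 and both members that passed. An unadjusted p below 0.05 was found for 13 members, against 20.6% of all genes. In the alpha cluster the smallest adjusted p was 0.201, for Pcdha7, and the standard errors were wide, with a median of 0.252 against 0.135 in the beta cluster.

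Without cbx superficial library 1, 0 members passed in edgeR and 9 had an unadjusted p below 0.05. Pcdhga8 then stood at -0.43 (edgeR adjusted p = 0.0638) and Pcdhgb4 at -0.50 (adjusted p = 0.0719), and the cluster medians were -0.23 for alpha, -0.06 for beta and -0.22 for gamma, with 43 of 55 members below 0. No share of all genes from this fit is set beside these counts. The pair of calls also depended on single saline libraries: 0 members passed without saline superficial library 1, 0 without library 3, and 1, Pcdhga8, without library 2. Without cbx superficial library 4 another pair of gamma members passed, Pcdhga3 and Pcdhga12, and without library 3 Pcdhgb6 and Pcdhgc4 passed as well, 4 in all. A fit of the superficial libraries alone called 0, while DESeq2 on all libraries called 5, Pcdhga3, Pcdhga12 and Pcdhgc4 beside the pair. Summed neuron markers were 6070 to 6375 CPM in cbx superficial and 6389 to 6906 CPM in saline superficial libraries, without overlap, microglial markers were 309 to 324 CPM against 234 to 257 CPM, and red blood cell markers 238 to 388 CPM against 149 to 230.5 CPM, also without overlap. Within the neuron list Elavl4 went against the sum and was higher after cbx, without overlap. The other 7 of 10 marker lists overlapped. The part of these cells in the protocadherin values was not tested.

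In the deep layer no member passed: 0 of 55 were changed in cbx deep against saline deep libraries by edgeR, and 0 by DESeq2 or limma-voom, where 1.83% of all genes passed in edgeR, 1.06% higher and 0.777% lower. An unadjusted p below 0.05 was found for 3 members, against 15.3% of all genes. The smallest p belonged to Pcdhgc3 (ENSMUSG00000102918), which had 51.5, 47.2, 52.4 and 49.6 CPM in cbx deep libraries, against 69.3, 60.7 and 57.7 CPM in saline deep libraries. The groups did not overlap, and the log2 difference was -0.32 (SE 0.126, edgeR adjusted p = 0.23). The standard error comes from a spread shared by all 14 libraries. When cbx superficial library 1, which is in neither group, was left out of the fit, the difference was the same and the adjusted p was 0.0212. Pcdhgc3 also passed when the deep libraries were fitted alone (edgeR adjusted p = 0.0241).

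The next smallest p-values in the deep layer were those of the beta genes Pcdhb6 and Pcdhb13. Pcdhb6 (ENSMUSG00000051678) had 4.23, 3.69, 3.70 and 3.95 CPM in cbx deep libraries, against 5.63, 4.71 and 4.46 CPM in saline deep libraries, without overlap (log2 difference -0.34, SE 0.154, edgeR adjusted p = 0.297). Pcdhb13 (ENSMUSG00000047307) had 6.03, 7.53, 4.84 and 6.95 CPM after cbx, against 7.34, 8.34 and 8.73 CPM after saline; here the ranges overlapped (log2 difference -0.36, SE 0.165, edgeR adjusted p = 0.302). Over the family 41 of 55 differences were below 0, against 48.5% of all genes. The medians were -0.10 for alpha, -0.03 for beta and -0.20 for gamma, with 19 of 21 gamma members below 0. Libraries did not overlap for 6 members, all lower after cbx, against 8.05% of all genes lower and 7.96% higher, and 5 of these 6 were gamma members: Pcdhga2, Pcdhga3, Pcdhga4, Pcdhgc3 and Pcdhgc4. Neuron markers summed to 7052 to 7809 CPM in cbx deep and 7537 to 7753 CPM in saline deep libraries, and 7 of 10 marker lists, neurons included, overlapped. Astrocyte markers were at 1332 to 1600 CPM in cbx deep against 1620 to 1915 CPM in saline deep libraries, meningeal fibroblast markers at 39.7 to 54.4 CPM against 60.99 to 69.6 CPM, and markers of dividing cells at 51.9 to 57.3 CPM against 49.05 to 50.9 CPM, without overlap. Within the list of dividing cells only Top2a separated the deep groups, with higher values after cbx. Mki67, Cdk1, Ccnb1 and Birc5 overlapped, and the means of Cdk1 and Birc5 were lower after cbx. The part of the cells behind these marker lists in the deep protocadherin values was not tested.

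**Figure D4:**
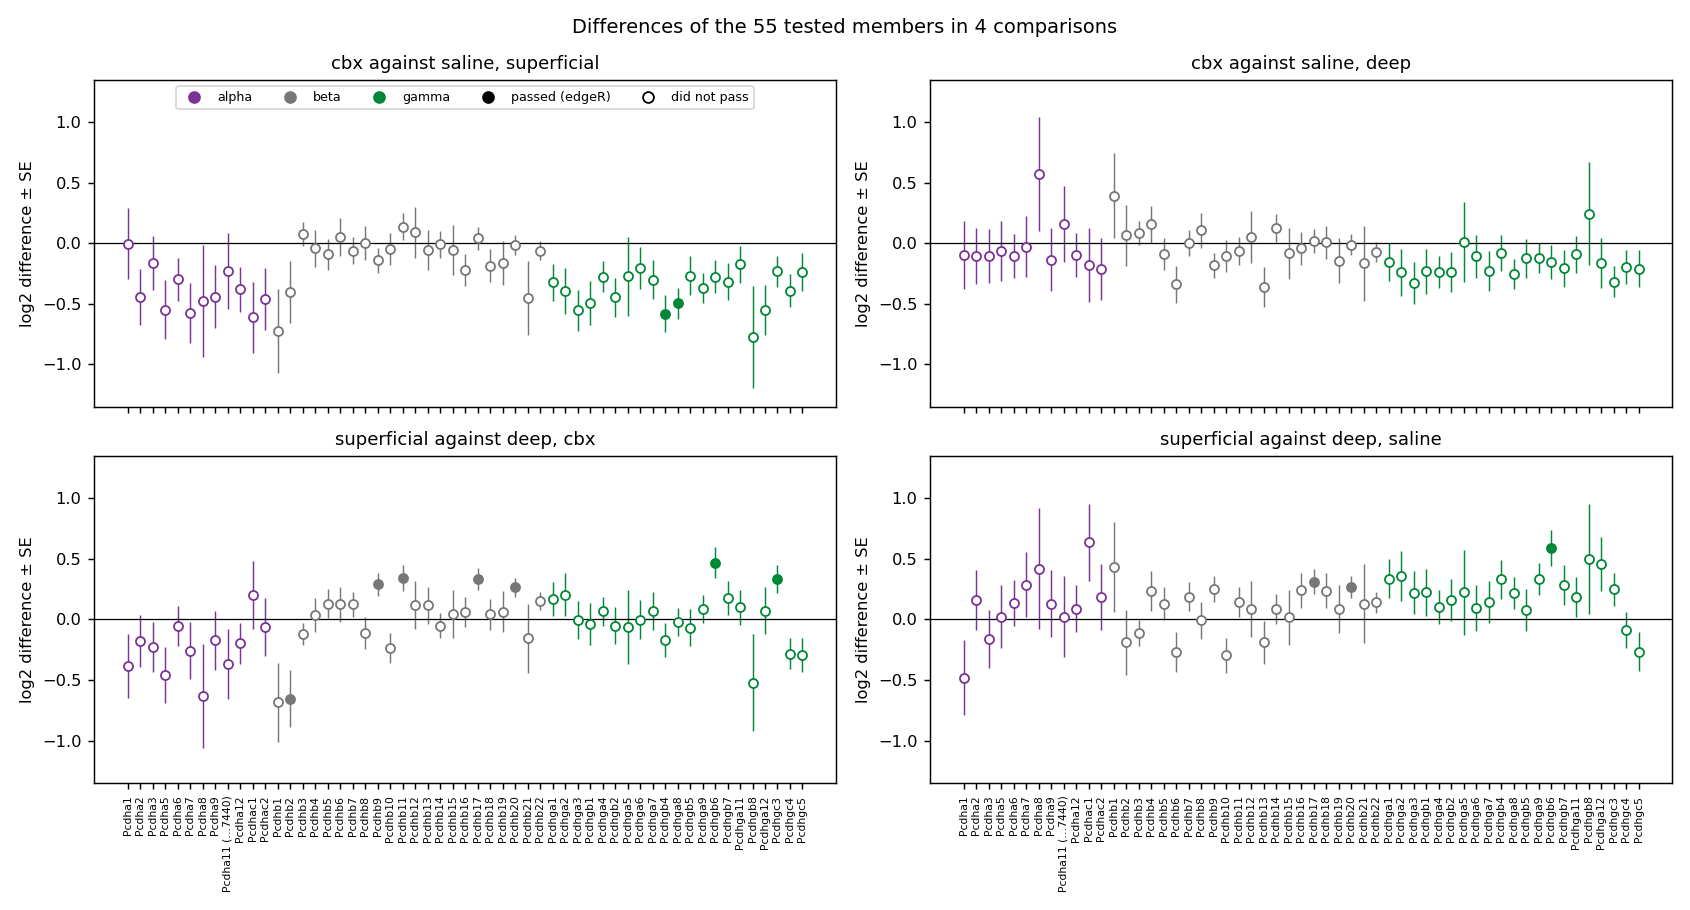
Log2 difference of each tested member with its standard error, in order along the locus, for cbx against saline in both layers (top) and superficial against deep after cbx and after saline (bottom); filled points passed the edgeR test. Alpha and gamma members lie below 0 in the superficial cbx comparison, with Pcdhga8 and Pcdhgb4 filled, and filled points of the layer comparisons are mainly beta members, Pcdhgb6 and Pcdhgc3.

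Whether the cbx difference itself differed between layers was tested as an interaction, superficial minus deep. By edgeR 0 members and 0% of all genes passed, as was the case for the members with DESeq2 and limma-voom, and 2 members had an unadjusted p below 0.05, against 8.36% of all genes. The smallest p belonged to Pcdhgb4, whose cbx difference was -0.58 in the superficial and -0.08 in the deep layer (interaction -0.50, SE 0.213, edgeR adjusted p = 0.559). In the deep layer Pcdhgb4 had 6.58, 6.88, 7.78 and 6.72 CPM after cbx, against 8.84, 7.22 and 6.12 CPM after saline. Pcdhb1 (ENSMUSG00000051663), the first beta gene, followed with an interaction of -1.11 (SE 0.495, edgeR adjusted p = 0.572), on counts of only 12 to 34 per library. It had 0.366, 0.427, 0.596 and 0.460 CPM in cbx superficial libraries, against 0.714, 0.800 and 0.790 CPM in saline superficial ones, and in the deep layer 0.650, 0.819, 0.525 and 1.00 CPM after cbx, against 0.604, 0.695 and 0.413 CPM after saline. For Pcdhb6 the interaction was 0.39 (SE 0.219, edgeR adjusted p = 0.654). Over the family 44 interactions were below 0 and 11 above, against 49.6% and 50.4% of all genes, with medians of -0.32 for alpha, -0.0073 for beta and -0.17 for gamma members. Without cbx superficial library 1 those medians were -0.11, -0.03 and -0.05, and 0 members passed or had an unadjusted p below 0.05. The layers are therefore not shown to differ in their response to cbx.

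Between layers, in pups given saline, 3 members were higher in the superficial layer and 0 were lower, against 9.67% of all genes higher and 8.73% lower. An unadjusted p below 0.05 was found for 5 members, against 29.1% of all genes. Pcdhgb6 (ENSMUSG00000103088), a type B gamma member, had 28.6, 28.5 and 25.8 CPM in saline superficial libraries, against 19.96, 19.1 and 15.98 CPM in saline deep libraries. The ranges were apart, and the log2 difference was 0.59 (SE 0.149, edgeR adjusted p = 0.008). Pcdhb17 (ENSMUSG00000046387) had 26.4, 24.3 and 20.9 CPM in superficial libraries, against 19.5, 21.3 and 16.97 CPM in deep ones, with 1 superficial library inside the deep range (log2 difference 0.31, SE 0.103, edgeR adjusted p = 0.0403). Pcdhb20 (ENSMUSG00000046191), the beta gene with the highest level per kb, had 23.7, 24.1 and 24.3 CPM, against 19.2, 19.5 and 21.2 CPM, without overlap (log2 difference 0.27, SE 0.0901, edgeR adjusted p = 0.0438).

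Over all 55 tested members in saline pups 45 differences were above 0, against 55.5% of all genes, with medians of 0.13 for alpha, 0.13 for beta and 0.22 for gamma and 0.04 for all genes. They ranged from -0.48 for Pcdha1 (SE 0.307) to 0.64 for Pcdhac1 (SE 0.317), neither of which passed (edgeR adjusted p = 0.33 and 0.191). Libraries did not overlap for 8 members that were higher and 4 that were lower in the superficial layer, against 20.2% and 16.5% of all genes. With single libraries left out, 1 member, Pcdhgb6, passed without saline superficial library 1 or 2 or saline deep library 1, while Pcdhb17 and Pcdhgb6 passed without saline superficial library 3 or saline deep library 2. Without saline deep library 3 only Pcdhb20 passed (edgeR adjusted p = 0.0482), and Pcdhgb6 was at 0.0502. DESeq2 called 1 of the 3, Pcdhgb6. With cbx superficial library 1 out of the shared fit 6 members passed, the 3 above and Pcdhga9, Pcdhga12 and Pcdhgc3. No share of all genes from this fit is set beside that count. Summed neuron markers were lower in superficial than in deep libraries of saline pups, at 6389 to 6906 CPM against 7537 to 7753 CPM, astrocyte markers higher, at 2419 to 2937 CPM against 1620 to 1915 CPM, and meningeal markers higher, at 486 to 720 CPM against 60.99 to 69.6 CPM. Single genes of a list could go against its sum. The neuron gene Syt1 was higher in the superficial layer and the astrocyte gene Aldoc lower, both without overlap. In all, 9 of 10 marker lists did not overlap between these groups, 5 higher and 4 lower in the superficial layer. Their part in the layer differences was not tested.

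In pups given cbx 6 members were higher and 1 lower in the superficial than in the deep layer, against 18.1% of all genes higher and 14.1% lower. Differences were above 0 for 26 of 55 members, against 52.2% of all genes, and an unadjusted p below 0.05 was found for 9, against 41.5%. Libraries did not overlap for 3 members that were higher, against 16.7% of all genes, and for 0 that were lower, against 13%. The comparison shares no library with the saline one, but both come from the same fit, with a spread and a scaling shared by all 14 libraries. Pcdhb17, Pcdhb20 and Pcdhgb6 again passed. Pcdhb17 had 24.2, 24.5, 25.2 and 24.2 CPM in cbx superficial libraries, against 18.04, 19.5, 21.6 and 18.8 CPM in cbx deep libraries, without overlap (log2 difference 0.33, SE 0.0886, edgeR adjusted p = 0.0067). Pcdhb20 had 25.4, 23.1, 24.7 and 21.881 CPM, against 20.3, 18.02, 19.1 and 21.862 CPM, so the lowest superficial library was barely above the highest deep one (log2 difference 0.26, SE 0.0778, edgeR adjusted p = 0.0133). Pcdhgb6 had 17.1, 21.4, 29.8 and 22.9 CPM, against 18.1, 17.6, 15.8 and 14.4 CPM (log2 difference 0.47, SE 0.129, edgeR adjusted p = 0.00905); only library 1 of the superficial group reached into the deep range.

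The beta genes Pcdhb11 and Pcdhb9 also passed in cbx pups. Pcdhb11 (ENSMUSG00000051486) had 13.3, 11.2, 11.3 and 13.6 CPM in superficial libraries, against 9.74, 9.15, 9.04 and 11.1 CPM in deep libraries, without overlap (log2 difference 0.34, SE 0.107, edgeR adjusted p = 0.0187). Pcdhb9 (ENSMUSG00000051242) had 15.9, 13.3, 15.4 and 15.3 CPM, against 12.05, 10.4, 12.7 and 13.8 CPM, which overlapped (log2 difference 0.29, SE 0.0955, edgeR adjusted p = 0.0244). The member that was lower was Pcdhb2 (ENSMUSG00000051599), with 1.59, 2.13, 4.50 and 4.32 CPM in superficial libraries, against 4.82, 5.71, 4.23 and 5.13 CPM in deep libraries (log2 difference -0.65, SE 0.237, edgeR adjusted p = 0.0418). Its low values were those of superficial libraries 1 and 2; libraries 3 and 4 lay at or near the deep range.

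Without cbx superficial library 1, 7 members were higher and 0 lower: Pcdhb2 (adjusted p = 0.0935) and Pcdhb9 (0.0541) no longer passed, and Pcdhga2 and Pcdhgb7 did, while 5 calls were shared. No share of all genes from this fit is set beside these counts. The median log2 difference without that library was -0.03 in the alpha, 0.115 in the beta and 0.19 in the gamma cluster, and with it -0.21, 0.06 and -0.0038. Pcdhb17 and Pcdhgb6 passed whichever of the 8 libraries was left out, and they alone passed without cbx deep library 2. Each of the other 7 omissions kept 5 of the 7 calls. Pcdhgc3, described with the C-type members, passed only when library 1 was the one left out. Without the pools of one sex, saline pool 1 and cbx pool 4, Pcdhb17 passed (edgeR adjusted p = 0.0405) but Pcdhgb6 did not. In a fit that pairs the layers of a pool all 7 calls were kept and the alternate alpha member Pcdha5 (log2 difference -0.53, edgeR adjusted p = 0.0323) and Pcdhgc5 (-0.31, adjusted p = 0.0284) were lower as well. All 10 marker lists separated the groups, 6 higher and 4 lower in the superficial layer. Neuron markers summed to 6070 to 6375 CPM in cbx superficial and 7052 to 7809 CPM in cbx deep libraries, astrocyte markers to 2370 to 2769 CPM against 1332 to 1600 CPM, and meningeal fibroblast markers to 635 to 1203 CPM against 39.7 to 54.4 CPM. Syt1 of the neuron list went against its sum and was higher in the superficial layer. Endothelial markers were at 262 to 313.5 CPM against 131 to 179 CPM, and markers of dividing cells at 91.1 to 116 CPM against 51.9 to 57.3 CPM. Their part in these layer differences was not tested.

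The 5 C-type members made up 30.1% of the family's CPM in cbx superficial, 32.3% in saline superficial, 32.4% in cbx deep and 34.4% in saline deep libraries. Their share was 26.5% in cbx superficial library 1 and 30.6% to 32.7% in the rest of that group. Pcdhgc4 (ENSMUSG00000023036) had the highest CPM of all members in 14 of 14 libraries. It was at 70.5, 104.2, 130.2 and 109.5 CPM in cbx superficial, against 138, 129.9 and 140.05 CPM in saline superficial libraries (log2 difference -0.39, SE 0.137, edgeR adjusted p = 0.12), with 1 cbx library just inside the saline range. Deep libraries had 128, 124, 129.8 and 123 CPM after cbx, against 157, 144 and 133 CPM after saline, without overlap (log2 difference -0.20, SE 0.138, edgeR adjusted p = 0.557). Between layers the difference, superficial against deep, after cbx was -0.28 (SE 0.128, edgeR adjusted p = 0.108) and after saline -0.09 (SE 0.147, adjusted p = 0.761). Without cbx superficial library 1 Pcdhgc4 differed by -0.25 from saline superficial (edgeR adjusted p = 0.0791) and by -0.14 from cbx deep libraries (adjusted p = 0.155). Without library 3, which keeps library 1 in the group, it passed in both comparisons. It then differed by -0.52 from saline superficial (edgeR adjusted p = 0.0221) and by -0.41 from cbx deep libraries (adjusted p = 0.00861).

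Pcdhgc3 was second by CPM in 14 of 14 libraries. It was at 44.8, 63.7, 75.1 and 69.0 CPM in cbx superficial, against 78.8, 75.9 and 67.9 CPM in saline superficial libraries, which overlapped (log2 difference -0.23, SE 0.125, edgeR adjusted p = 0.315). Without cbx superficial library 1 Pcdhgc3 differed by -0.0997 (edgeR adjusted p = 0.57). After cbx it was higher in the superficial than in the deep layer (log2 difference 0.33, SE 0.117, edgeR adjusted p = 0.0397), and without library 1 the difference was 0.465 (adjusted p = 4.72e-05); it did not pass when any other of the 8 libraries was left out. After saline the layer difference was 0.25 (SE 0.135, edgeR adjusted p = 0.247) and did not pass unless library 1 of the cbx superficial group was left out of the shared fit (adjusted p = 0.0293).

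Pcdhac2 (ENSMUSG00000102697) was at 14.8, 26.2, 40.5 and 37.1 CPM in cbx superficial, against 41.8, 38.6 and 42.3 CPM in saline superficial libraries, and at 28.9, 29.4, 35.2 and 30.6 CPM in cbx deep, against 41.7, 34.05 and 32.2 CPM in saline deep libraries. The ranges overlapped in both layers (superficial log2 difference -0.46, SE 0.256, edgeR adjusted p = 0.343, and deep -0.21, SE 0.258, adjusted p = 0.779). Without cbx superficial library 1 the superficial difference of Pcdhac2 was -0.24 (edgeR adjusted p = 0.371). Of the markers of monoamine neurons, those of serotonin neurons were near 0 over all libraries. Fev was at 0 to 0.199, Tph2 at 0.0511 to 0.665 and Slc6a4 at 0 to 0.632 CPM. In saline pups Slc6a4 was higher in superficial libraries, at 0.400 to 0.632 against 0 to 0.318 CPM in deep ones, opposite to the summed list. Slc18a2 and Ddc made up most of that sum. The summed list of 6 was at 9.18 to 13.98 CPM in cbx superficial, 8.43 to 11.4 CPM in saline superficial, 16.02 to 18.03 CPM in cbx deep and 17.05 to 17.45 CPM in saline deep libraries. Their part in the Pcdhac2 values was not tested. Pcdhac1 (ENSMUSG00000103255) was at 0.702, 2.08, 1.54 and 1.74 CPM in cbx superficial, against 2.86, 2.14 and 1.98 CPM in saline superficial libraries, and at 0.943, 1.20, 1.37 and 1.80 CPM in cbx deep, against 1.56, 1.54 and 1.38 CPM in saline deep libraries. In saline pups all its superficial values were above all deep ones (log2 difference 0.64, SE 0.317, edgeR adjusted p = 0.191).

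Pcdhgc5 (ENSMUSG00000102543), whose protein binds GABA-A receptors, was at 5.46, 7.37, 8.62 and 8.46 CPM in cbx superficial, against 9.9955, 8.31 and 8.24 CPM in saline superficial libraries. Deep libraries had 8.28, 9.64, 9.68 and 9.22 CPM after cbx, against 13.2, 9.79 and 8.98 CPM after saline. Cbx and saline ranges overlapped in both layers, and neither difference passed (superficial -0.24, SE 0.155, edgeR adjusted p = 0.41; deep -0.21, SE 0.153, adjusted p = 0.572). Superficial libraries differed from deep ones by -0.29 after cbx (SE 0.143, edgeR adjusted p = 0.127) and by -0.27 after saline (SE 0.164, adjusted p = 0.312). Without cbx superficial library 1 the superficial cbx difference was -0.12 (edgeR adjusted p = 0.731). The layer difference after cbx was then -0.17 (adjusted p = 0.353).

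**Figure D5:**
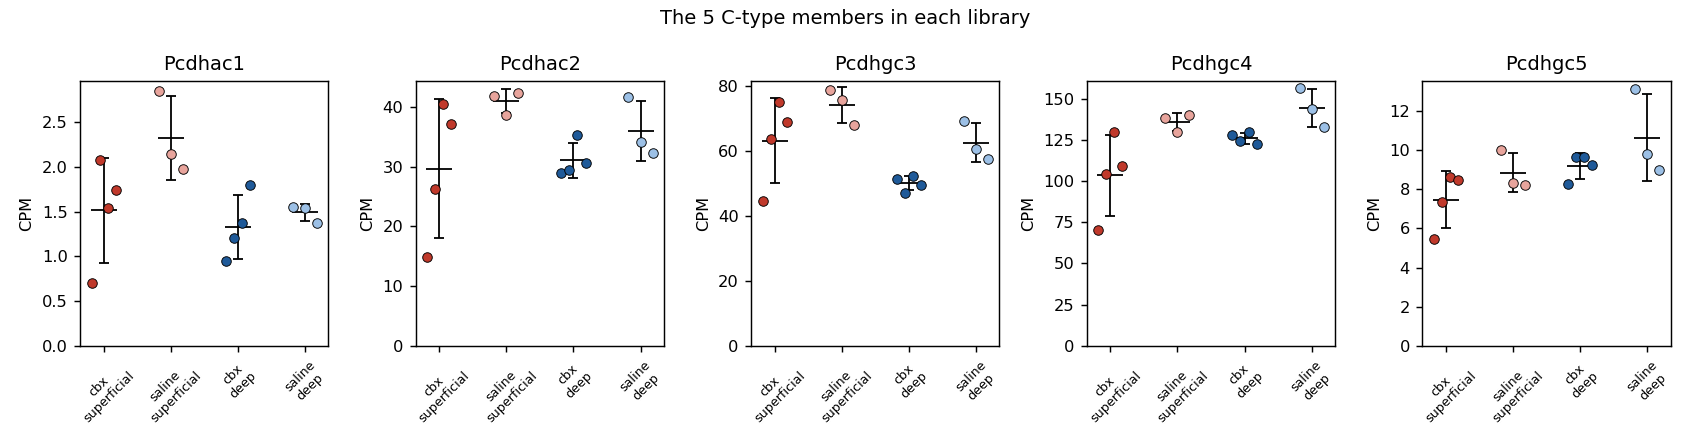
CPM of the 5 C-type members in the 14 libraries, 1 panel per member, with the group mean and SD; every axis starts at 0. The lowest point of each cbx superficial group is library 1, and the lowest group mean of Pcdhgc3 is that of cbx deep libraries.

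Of 48 genes that control or act with the family, 48 were tested: 22 for promoter choice and silencing, 20 partners and signalling genes and 6 for shedding and cleavage. After cbx 4 were lower and 0 higher in the superficial layer, with a median log2 difference of -0.07, where 1.65% of all genes were lower and 2.68% higher, with a median of 0.01. Tet3, which oxidises methylated DNA, averaged 132 ± 22.8 CPM in cbx superficial and 174 ± 6.37 CPM in saline superficial libraries (SD, n = 4 and 3; log2 difference -0.39, edgeR adjusted p = 0.0342). Nlgn2 (-0.27, adjusted p = 0.0259) and Nlgn1 (-0.36, adjusted p = 0.0381), synaptic adhesion proteins that gamma protocadherins bind, and Prkcb (-0.29, adjusted p = 0.0469), a protein kinase C, were the others in edgeR. Without cbx superficial library 1 Tet3 and Nlgn2 still passed (adjusted p = 0.0222 and 0.0436), while Nlgn1 and Prkcb did not (0.0709 and 0.0901), and the cohesin-associated Pds5b was higher (0.27, adjusted p = 0.0237). In the deep layer 1 gene was higher and 0 lower after cbx, against 1.06% and 0.777% of all genes, with a median of -0.07 for the list and 0.01 for all genes. The gene was Setdb1, a histone methyltransferase that acts on the locus, with 61.3 to 65.4 CPM in cbx deep and 50.2 to 51.8 CPM in saline deep libraries (log2 difference 0.30, edgeR adjusted p = 0.017). Setdb1 was at 62.0 to 64.9 CPM in cbx superficial and 54.5 to 62.6 CPM in saline superficial libraries, and 0 of 48 genes passed the interaction in edgeR. With cbx superficial library 1 out of the shared fit Setdb1 and Pds5b were higher and Tet3 and Fyn lower after cbx in the deep layer, 2 genes each way.

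Between layers, in saline pups, 3 of the 48 genes were higher and 6 lower in the superficial layer, against 9.67% and 8.73% of all genes, with a median log2 difference of 0.06 for the list and 0.04 for all genes. Smc3, a cohesin subunit, was higher (log2 difference 0.36, edgeR adjusted p = 0.00116), as were Ctcf (0.22, adjusted p = 0.0311), the factor that pairs the chosen promoter with its enhancer, and Dnmt3b, a methyltransferase that marks the variable promoters (0.61, adjusted p = 0.0348). Dnmt3a, another methyltransferase of the list, went the other way, at 314 to 358 CPM in saline superficial and 439 to 494 CPM in saline deep libraries. With cbx superficial library 1 out of the shared fit Dnmt3a differed by -0.50 (edgeR adjusted p = 2.5e-05). The kinases Ret (-0.64, edgeR adjusted p = 0.000455) and Fyn (-0.22, adjusted p = 0.0136) were among the lower genes. In cbx pups 10 were higher and 12 lower, against 18.1% and 14.1% of all genes, with a median of 0.02 for the list and 0.02 for all genes. Among them were Ret (-0.83, edgeR adjusted p = 2.55e-06), Smc3 (0.37, adjusted p = 0.00012) and Marcks (0.42, adjusted p = 0.00019), a protein kinase C substrate. Of the 22 promoter genes 6 were higher and 2 lower in the superficial layer of cbx pups, and of the 20 partners 1 was higher and 10 lower, beside the same shares of all genes; the lists were not tested against each other or against other genes. Leaving out cbx superficial library 1 gave 13 higher and 11 lower in cbx pups, and 6 higher and 9 lower in saline pups, whose libraries share the estimate of spread. No share of all genes from these fits is set beside the counts.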

How the data were processed

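Poly-A selected RNA of 14 libraries was sequenced in pairs of 150 bases, per the labels' protocols. Whole-number counts per Ensembl gene ID were deposited by the authors, 1 table per library; the submitters' processing notes list STAR 2.7.9d, Subread 2.0.1 with featureCounts, and SAMtools 1.14, and name the builds GRCm39 and mm10 without a role. The sources used here give no annotation, strand setting or treatment of reads that overlap several genes. Symbols matched 52083 IDs, holding 98.7% of counts. Exon overlap, lengths and order came from GENCODE M21, used for no coordinates.

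The counts were fitted with edgeR 4.0.16 in R 4.3.3: filterByExpr by group, TMM factors, 4 group means over 14 libraries (10 residual degrees of freedom), robust quasi-likelihood test, Benjamini-Hochberg adjustment over 20330 genes. The steps were tested on simulated data. A library is a pool of 3 brains, groups come from the labels and replicate numbers from the titles. The Y-linked Ddx3y was at 0 to 38.6 CPM in cbx superficial and 37.0 to 70.8 CPM in saline superficial libraries. Deep libraries had 0 to 37.2 CPM after cbx and 30.5 to 69.5 CPM after saline. The mix of sexes was thus not balanced over treatments. Its part in the cbx differences was not tested beyond leaving out the pools of one sex, of which cbx pool 4 had no Ddx3y and saline pool 1 little Xist. Deviations of same-numbered libraries correlated between layers of a treatment at 0.182 to 0.394 over 15168 genes of at least 1 CPM in all 7 pairs (0.00501 to 0.18 over all genes) and between treatments at -0.276 to -0.0167, so the numbers were taken to pair layers only. Among 18 pairs of replicates the chi-square per gene ran from 7.66 to 51.5, and all were kept as separate libraries. Alternatives used DESeq2 1.42.0 and limma 3.58.1. C-type members, members past the threshold in a cbx comparison (or the 3 smallest p-values) and, per layer comparison, up to 3 members per cluster past the threshold were named with values in every library; of 48 pathway genes, those past the threshold after cbx and the 4 smallest p-values between layers, of which 1 gene is not reported here. Pcdhb9, Pcdhb2, Ctcf, Dnmt3b, Dnmt3a, Pds5b, Pcdha1, single marker genes and members named without values in every library were chosen after their values were seen. The members, gene lists and rules were chosen with earlier results of these data known. No sequences are shown.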

Additional observations from a re-analysis of the deposited data

Results flagged for a closer look

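Among 38 groups of 4 libraries examined for single values far from the rest, 1 was found, and chance alone gives about 1.9. It was the summed alpha cluster in cbx deep library 3, at 120.2 CPM, where the nearest other library of the group was at 103.2 CPM and the lowest at 100.6 CPM. The saline deep libraries of the same layer were at 130.2, 111 and 104 CPM. No cause was tested.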

How the results depend on the processing

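No member that passed a test changed direction in any alternative run. The count of members that passed in the superficial cbx comparison, 2 as reported, was 12 with no filter on low counts, 5 with DESeq2, 0 with only the groups compared and 0 without the pools of one sex (saline pool 1 and cbx pool 4); with single libraries left out it ranged from 0 to 4. For cbx in deep libraries 0 became 1 with no filter, with only the groups compared and with cbx superficial library 1 out of the shared fit, an alternative added after seeing the data. Between layers in saline pups 3 became 1 with median-of-ratios size factors, 1 with DESeq2, 5 with only the groups compared, 0 without the pools of one sex and 6 without cbx superficial library 1 in the shared fit, and 1 to 2 with single libraries left out. In cbx pups 7 became 4 with only the groups compared and 2 to 7 with single libraries left out. The interaction stayed at 0 throughout. With the replicate number as a block over treatments, where only the number is shared, 0 members passed in the superficial cbx comparison. With the pool as a replicate block 3 and 9 members passed between layers after saline and after cbx, and with a random pool block (correlation 0.205) 3, 0, 4 and 7 passed in the 4 comparisons; no other call was lost. The summed beta cluster differed by 0.014 (log2; -0.04 as reported) between cbx deep and saline deep with total counts as the scale and by 0.20 between layers in saline pups, and the gamma cluster by 0.26 between layers in saline pups without Pcdhgc4. Calls thus rest on 3 or 4 libraries a group, and differences of the low members, with counts of 9 to 62 for Pcdha8, were not detectable at this depth unless large.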

Other observations

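The ratio of the CPM of Pcdhgc4 to that of Pcdhgc3, a pair of neighbouring C-type genes, was 1.58 to 1.73 in cbx superficial and 1.71 to 2.06 in saline superficial libraries, and 2.47 to 2.63 in cbx deep and 2.26 to 2.37 in saline deep libraries. Every superficial library was below every deep library in both treatments, library 1 of the cbx superficial group included. This ratio was chosen after its values were seen and was given no test.

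The spread of single members between libraries of a group differed by cluster. The median coefficient of variation of alpha members was 38.5% in cbx superficial libraries (20.05% without library 1), 17.7% in saline superficial, 13.4% in cbx deep and 14.4% in saline deep libraries. For beta members it was 13.1% (10.6% without library 1), 9.15%, 10.5% and 11.01% in the same groups, and for gamma members 23.05% (9.95% without library 1), 11.2%, 8.82% and 11.45%.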
